A study of Mus musculus with 24 samples.

Results

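The levels of 10 genes were followed in kidneys of male mice through obstruction of the ureter and recovery from it. They comprise 9 genes of endothelial cells (Pecam1, Cdh5, Emcn, Eng, Plvap, Ehd3, Kdr, Flt1 and Tek) and Vegfa, the ligand on which these cells depend. They were taken by name from the deposited table, and all 10 had a row among its 14785 genes. Values are in FPKM, fragments per kilobase of transcript and per unit of library depth, a unit inferred here from the values. Being per length, levels can be set side by side between genes. Each endothelial gene was above 0 in all 24 libraries.

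All animals were male C57/BL6 mice labelled as 8 weeks old, and the labels name no transgene or deletion in any group. The series title places the tissue in the cortex of the kidney, while the labels say kidney. Sham animals had surgery only. In unilateral ureter obstruction (UUO) the ureter of one kidney is tied, and the kidneys were taken after 2 days (UUO2) or 7 days (UUO7). In the recovery groups the ureter was reimplanted after 7 days of obstruction, and the kidneys were taken 1 week (R1W), 2 weeks (R2W) or 4 weeks (R4W) later. Each group holds 4 libraries from 4 animals, which the series' design text says were selected from 10. How they were selected is not given in the sources used here.

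Kidney endothelium lines the glomerular capillaries, the capillaries around the tubules, the larger vessels and the vasa recta, and each of these beds uses a common core of junction and surface proteins beside its own genes. VEGF-A is made mainly by podocytes and tubule cells in the kidney and acts on the endothelium next to them. Its signalling receptor is VEGFR2 (Kdr), while VEGFR1 (Flt1) binds the ligand tightly and, in its soluble form, holds it away from VEGFR2. The angiopoietins signal through TIE2 (Tek), which supports vessel stability.

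The deposited tables hold no fragment totals. Steps in the low values of genes with 1 transcript implied depths of 24660000 to 35340000 fragments for 20 libraries, and no such steps were found in the 4 libraries of UUO2, so their depth cannot be given. The UUO2 libraries also held 2343 to 2832 FPKM of the mitochondrial rRNA mt-Rnr1, against 342 to 709 FPKM in the other 20. The series' design text speaks of 20 multiplexed libraries. A difference between UUO2 and any other group therefore cannot be told apart from a difference in how those libraries were made. Adipose genes (Adipoq, Cfd and Plin1) summed to 110 FPKM in sham replicate 2, against at most 0.26 FPKM in the other sham libraries, and to 739 and 222 FPKM in R4W replicates 1 and 3, against at most 1.04 FPKM in the other R4W libraries. They summed to 12.9 FPKM in UUO7 replicate 3, against at most 0.09 FPKM in the other UUO7 libraries. Urothelial uroplakin genes also stood apart in sham replicate 2, at 30.5 FPKM against at most 2.17 FPKM in the other sham libraries. The title of R4W replicate 2 gives 4 weeks of recovery and its treatment label gives 2 weeks, and it was grouped by title. Finally, an FPKM is a share of its library, and the median of all genes on log2(FPKM + 1) lay 0.42 above sham in UUO7, 0.37 above in R1W, 0.32 above in R2W, 0.30 above in R4W and 0.09 above in UUO2. Differences are therefore given as deposited and again after each library was divided by its median ratio to the mean library, here called rescaled values.

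**Figure D1:**
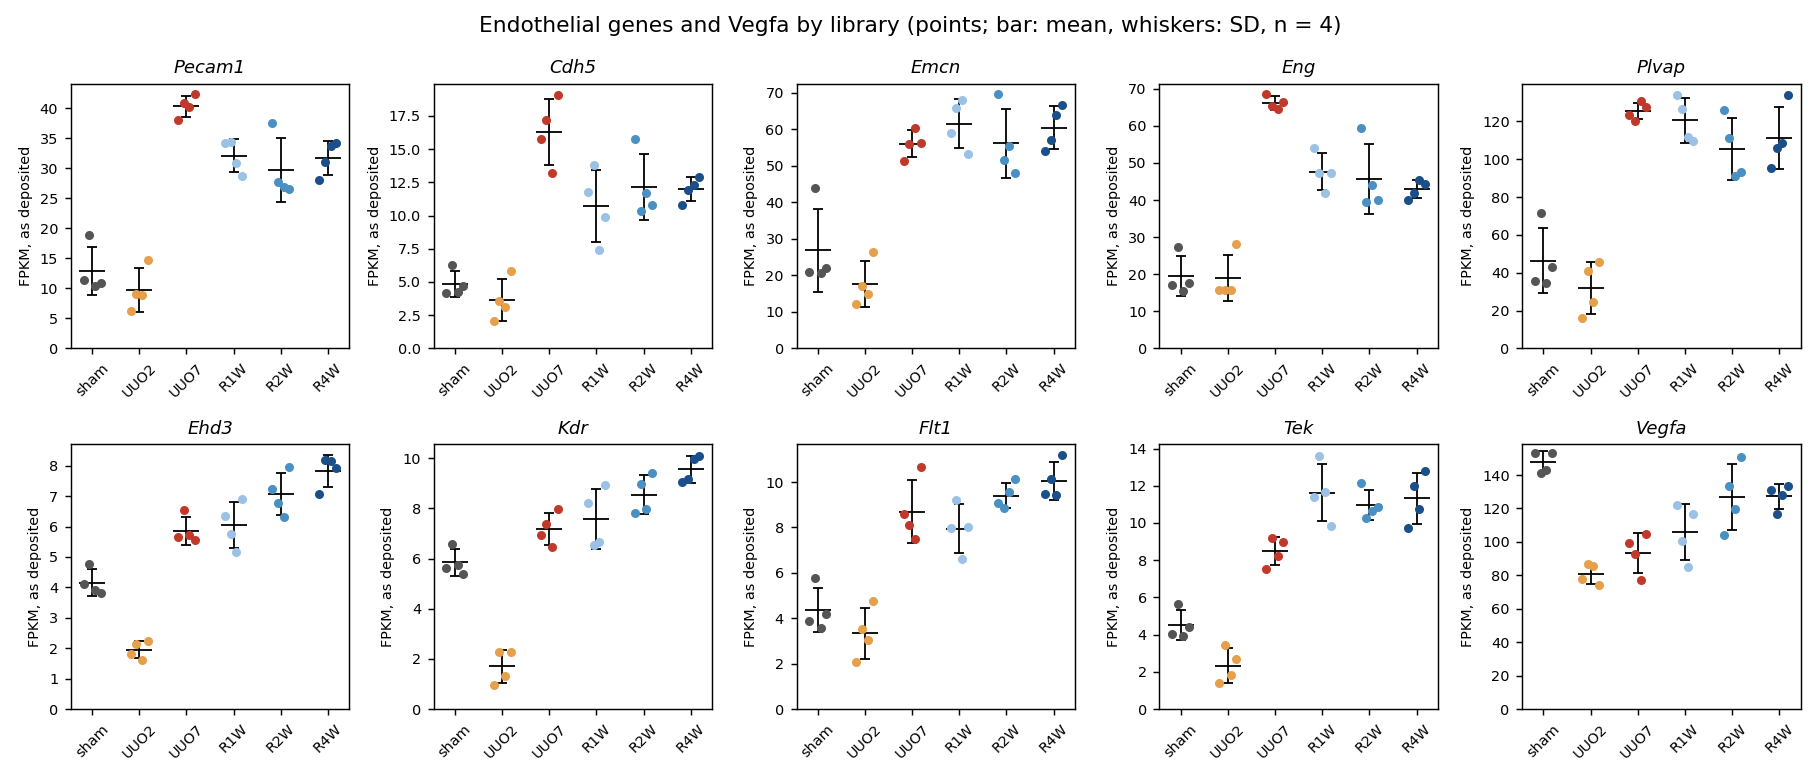
Each panel plots 1 gene, with FPKM as deposited on the vertical axis from 0, the 6 groups on the horizontal axis, a point for each library, a bar at the mean and whiskers of 1 SD (n = 4). Pecam1, Cdh5, Eng and Plvap had their highest mean in UUO7, Emcn and Tek theirs in R1W, and Kdr, Ehd3 and Flt1 theirs in R4W, while Vegfa had its highest mean in sham.

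Pecam1, Cdh5, Emcn, Eng and Plvap were higher after 7 days of obstruction than in sham kidneys. The differences were 1.11 (Emcn) to 1.75 (Eng) on the log2 scale as deposited and 0.63 to 1.28 rescaled. Pecam1, which encodes the junction protein CD31 and lies on chromosome 11 (106654217 to 106750628, minus strand, ENSMUSG00000020717.19), was at 11.4, 18.9, 10.4 and 10.8 FPKM in the 4 sham libraries. It was at 38.1, 40.8, 40.2 and 42.3 FPKM in UUO7. Every UUO7 library lay above every sham library, and sham replicate 2, the library with adipose and urothelial RNA, was the highest of the sham group. The difference was 1.61 on the log2 scale (SE 0.18, limma adjusted p = 8.4e-08) as deposited and 1.15 rescaled (limma adjusted p = 4.1e-06).

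Cdh5 encodes VE-cadherin, the adhesion molecule of endothelial junctions. Its mean was 4.87 FPKM ± 0.976 (SD, n = 4) in sham and 16.3 FPKM ± 2.48 in UUO7, and the libraries of the 2 groups did not overlap. Eng encodes endoglin, a co-receptor for TGF-beta and BMP ligands. Its mean was 19.4 FPKM ± 5.36 in sham and 66.2 FPKM ± 1.80 in UUO7, the widest log2 difference among the 10 genes, 1.75 (SE 0.17, limma adjusted p = 8.9e-09). Eng shares exon bases with Fpgs on the opposite strand, and whether fragments were counted by strand is not given in the sources used here, so its level is uncertain. Each of the other 9 genes shares exon bases with no other gene of the GRCm38 annotation used.

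Emcn and Plvap belong to capillaries and veins: endomucin is a surface sialomucin of those vessels, and PLVAP forms the diaphragms of fenestrated capillaries. Plvap had the highest mean of the 9 endothelial genes in every group, with a mean of 46.2 FPKM ± 17.2 in sham and 125 FPKM ± 4.40 in UUO7. The sham libraries of Plvap were at 35.6, 71.4, 34.7 and 43.2 FPKM, with sham replicate 2 again the highest. Emcn was at 20.8, 44.0, 20.7 and 21.9 FPKM in sham and at 51.5, 55.9, 60.5 and 56.2 FPKM in UUO7. Leaving out sham replicate 2 moved the log2 difference of UUO7 from sham from 1.11 to 1.36 for Emcn and from 1.48 to 1.71 for Plvap, so both were larger without that library.

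After 2 days of obstruction these 5 genes were not higher than in sham. Emcn was lower, with 12.2, 17.1, 14.8 and 26.5 FPKM in UUO2 and a log2 difference of -0.56 (SE 0.21, limma adjusted p = 0.029), but the libraries overlapped with sham and the call was lost without sham replicate 2 (-0.30, limma adjusted p = 0.15), without UUO2 replicate 1 (-0.41) and without UUO2 replicate 3 (-0.50). Pecam1 differed from sham by -0.39, Cdh5 by -0.38, Plvap by -0.57 and Eng by -0.05, with limma adjusted p-values of 0.083, 0.11, 0.054 and 0.85. UUO2 replicate 4 was the highest UUO2 library for all 5. Without it Pecam1, Cdh5 and Plvap passed the threshold on the lower side (-0.60, -0.59 and -0.77), as Plvap did without sham replicate 1 (-0.67), sham replicate 3 (-0.68) or UUO2 replicate 2 (-0.72). Rescaled values also placed Pecam1 (-0.52), Cdh5 (-0.51), Emcn (-0.69) and Plvap (-0.70) below sham at adjusted p under 0.05 in limma, and Eng at -0.18 (adjusted p = 0.36).

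During recovery the 5 genes stayed above sham in every group. Pecam1 averaged 32.1 FPKM ± 2.74 in R1W, 29.7 FPKM ± 5.31 in R2W and 31.8 FPKM ± 2.82 in R4W. In R4W the 4 libraries of Pecam1 were at 28.1, 31.0, 33.8 and 34.2 FPKM, all above the highest sham library and all below the lowest UUO7 library. The difference of R4W from UUO7 did not pass the test (-0.34, limma adjusted p = 0.13), while the authors' deposited table gives -0.26 with an adjusted p of 0.0052. For Cdh5, too, every R4W library as deposited lay below the lowest of UUO7, while rescaled the groups overlapped. Its difference was -0.40 (limma adjusted p = 0.094), and it passed in the fit without UUO2, in the fit on these groups alone and with a pseudocount of 10. For Cdh5 the authors' deposited table gives -0.36 with an adjusted p of 0.0026. Eng fell from 66.2 FPKM in UUO7 to 43.0 FPKM ± 2.41 in R4W, a log2 difference of -0.61 (SE 0.17, limma adjusted p = 0.0052), and was the only one of the 5 called in the fit on all groups. Emcn averaged 56.0 FPKM ± 3.69 in UUO7 and 60.4 FPKM ± 5.86 in R4W, with libraries that overlapped.

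Ehd3 encodes an endocytic recycling protein that in the kidney is known as a marker of glomerular endothelium. The deposited table places it on chromosome 17 (73804841 to 73832093, plus strand), and its mean in sham was the lowest of the 10 genes, with libraries at 4.11, 4.78, 3.91 and 3.81 FPKM. It fell in UUO2 to 1.80, 2.15, 1.63 and 2.24 FPKM, with no overlap and a log2 difference of -0.80 (SE 0.09, limma adjusted p = 5.2e-07). In UUO7 it was at 5.64, 6.54, 5.72 and 5.55 FPKM. That is a difference from sham of 0.41 (limma adjusted p = 0.00029) as deposited, about the shift of the median gene, and of 0.01 (limma adjusted p = 0.92) rescaled. Thus the call of Ehd3 in UUO7 against sham held on the deposited scale and not on the rescaled one.

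In recovery Ehd3 had means of 6.04 FPKM ± 0.755 in R1W, 7.06 FPKM ± 0.693 in R2W and 7.84 FPKM ± 0.525 in R4W. The R4W libraries were at 7.07, 8.20, 8.15 and 7.93 FPKM, all above the R1W libraries, whose highest was 6.91 FPKM. Ehd3 was the only one of the 10 genes called between R4W and R1W (0.33, SE 0.09, limma adjusted p = 0.017, 0.39 rescaled). The call was lost without R1W replicate 3 (0.27, limma adjusted p = 0.086), in the fit on these groups alone and on rescaled values without R4W replicates 1 and 3, and 5.06% of all genes were called higher in this comparison. R4W was also above sham on both scales, by 0.78 as deposited and 0.47 rescaled (limma adjusted p = 3.8e-07 and 0.00027).

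The 3 receptors among the 10 genes are Kdr, Flt1 and Tek. The upstream sequences of Kdr and Flt1 are shown with that of Vegfa because both receptors bind this ligand and the ratio of Flt1 to Kdr changed, as described further on. RefSeq promoter entries (GRCm38.p6) were matched for 7 of the 10 genes. Each line gives the 250 bases before the transcript start, 5′ to 3′ on the gene's strand, and capitals mark GGAAG or its reverse complement CTTCC, the core bound by ETS factors, a family known for its part in endothelial transcription. The windows are chr5:75978456-75978705 for Kdr, chr5:147726012-147726261 for Flt1 and chr17:46032378-46032627 for Vegfa, all on the minus strand.
Kdr: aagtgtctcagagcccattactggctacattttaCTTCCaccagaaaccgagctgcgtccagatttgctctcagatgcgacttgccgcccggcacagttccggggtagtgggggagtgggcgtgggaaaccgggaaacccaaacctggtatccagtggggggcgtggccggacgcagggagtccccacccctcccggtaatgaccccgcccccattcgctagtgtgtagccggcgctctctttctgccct
Flt1: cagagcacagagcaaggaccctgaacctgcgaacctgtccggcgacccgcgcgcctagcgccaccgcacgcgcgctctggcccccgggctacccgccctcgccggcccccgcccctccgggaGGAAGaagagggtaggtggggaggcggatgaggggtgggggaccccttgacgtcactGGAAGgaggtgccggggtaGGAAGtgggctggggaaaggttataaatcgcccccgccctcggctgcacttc
Vegfa: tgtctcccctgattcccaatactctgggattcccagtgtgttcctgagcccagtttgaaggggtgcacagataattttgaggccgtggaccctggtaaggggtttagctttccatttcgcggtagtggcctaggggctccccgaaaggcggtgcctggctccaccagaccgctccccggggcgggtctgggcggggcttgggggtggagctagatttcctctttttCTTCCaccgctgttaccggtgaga
The Flt1 window held 3 matches, the Kdr and Vegfa windows 1 each, those of Emcn and Eng 2 each, and those of Ehd3 and Tek 0. Of the 32851 promoters in the table, 64.1% held at least 1 match on either strand in a window of this length. The core of the hypoxia response element, ACGTG on either strand, had 0 matches in these 7 windows and was present in 16.6% of all promoters. These are the windows of the first start listed for each gene. The table's other Vegfa window (chr17:46025164-46025413, minus strand) is not printed, and it had 1 match of ACGTG and 1 of GGAAG. It lies within the Vegfa gene, and its start was not matched to a Vegfa transcript, unlike the starts of the 7 windows. These are letter matches and no measure of binding.

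Kdr (ENSMUSG00000062960.10, chromosome 5, 75932827 to 75978458, minus strand) fell the furthest in early obstruction. Its level was 5.64, 6.59, 5.76 and 5.38 FPKM in sham and 0.95, 2.27, 1.33 and 2.27 FPKM in UUO2. The groups were far apart, and the log2 difference was -1.37 (SE 0.13, limma adjusted p = 6.8e-08) as deposited and -1.53 rescaled. In UUO7 Kdr was at 6.92, 7.36, 6.46 and 7.97 FPKM, which overlapped with sham: the difference was 0.26 (limma adjusted p = 0.082) as deposited and -0.17 (limma adjusted p = 0.31) rescaled. The sign for Kdr in UUO7 against sham therefore depends on the scale. In the fit without UUO2 the deposited difference of 0.26 passed (limma adjusted p = 0.018). The authors' deposited table gives -0.21 with an adjusted p of 0.015 for this comparison.

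Through recovery Kdr averaged 7.58 FPKM ± 1.19 in R1W, 8.55 FPKM ± 0.773 in R2W and 9.56 FPKM ± 0.534 in R4W. The R4W libraries, at 9.03, 9.17, 9.95 and 10.1 FPKM, all lay above UUO7, and R4W exceeded UUO7 by 0.37 (SE 0.13, limma adjusted p = 0.026) as deposited and 0.46 rescaled. That call was lost on leaving out any of UUO7 replicates 1 or 3 or R4W replicates 3 or 4 (0.33 to 0.36), of which UUO7 replicate 3 and R4W replicate 3 held adipose RNA. Against sham, R4W was higher by 0.63 (limma adjusted p = 0.00035) as deposited, while the rescaled difference was 0.30 (limma adjusted p = 0.079). The authors' deposited table gives 0.33 with an adjusted p of 5.7e-05.

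Flt1 lies on the same chromosome (147561604 to 147726011, minus strand). It was at 3.88, 5.79, 3.58 and 4.20 FPKM in sham and 2.06, 3.51, 3.06 and 4.76 FPKM in UUO2, and the overlapping groups differed by -0.32 (limma adjusted p = 0.081). The difference passed without UUO2 replicate 4 (-0.47, limma adjusted p = 0.011) and on rescaled values (-0.44, limma adjusted p = 0.013). In UUO7 it was at 8.59, 8.09, 7.47 and 10.7 FPKM, all above sham, a rise of 0.86 (SE 0.15, limma adjusted p = 2.4e-05) as deposited and 0.45 rescaled (limma adjusted p = 0.0077). In R4W it was at 9.48, 10.1, 9.41 and 11.2 FPKM, 1.06 above sham on the log2 scale (limma adjusted p = 4.9e-06).

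Tek fell in UUO2, from a mean of 4.51 FPKM ± 0.804 in sham to 2.34 FPKM ± 0.916, with no overlap (-0.75, SE 0.15, limma adjusted p = 0.00026). Its UUO7 libraries, at 7.53, 9.19, 8.24 and 8.99 FPKM, were all above sham (0.79, limma adjusted p = 4.9e-05, 0.38 rescaled). In R1W the libraries were at 11.4, 13.6, 11.7 and 9.86 FPKM, all above UUO7. The difference between R1W and UUO7 was 0.41 (SE 0.15, limma adjusted p = 0.064) as deposited and 0.44 (limma adjusted p = 0.041) rescaled, and the authors' deposited table gives 0.50 with an adjusted p of 1.5e-05. Tek was called in no comparison between the recovery groups, with means of 11.6, 11.0 and 11.3 FPKM in R1W, R2W and R4W.

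Vegfa, on chromosome 17 (46016993 to 46032369, minus strand), was the most abundant of the 10 genes in sham and was lower than in sham after both 2 and 7 days of obstruction. Its sham libraries were at 153, 141, 143 and 153 FPKM. In UUO2 they were at 77.8, 86.6, 85.5 and 74.3 FPKM, and in UUO7 at 99.3, 92.6, 77.0 and 104 FPKM. Both obstructed groups lay wholly below sham, by -0.86 (SE 0.11, limma adjusted p = 3.5e-06) and -0.67 (SE 0.11, limma adjusted p = 1.9e-05) as deposited and by -1.0 and -1.15 rescaled. UUO7 and UUO2 themselves differed by 0.19 (limma adjusted p = 0.14) as deposited and -0.15 (limma adjusted p = 0.33) rescaled, so the sign depends on the scale. Without UUO7 replicate 3, the lowest of its group and the one with adipose RNA, the deposited difference was 0.28 (limma adjusted p = 0.037).

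In recovery Vegfa was at 122, 100, 84.9 and 117 FPKM in R1W, at 104, 133, 120 and 151 FPKM in R2W and at 131, 117, 128 and 134 FPKM in R4W. R4W was above UUO7 by 0.45 (SE 0.11, limma adjusted p = 0.0029), with no overlap. All 4 R4W libraries were still below the lowest sham library, at 141 FPKM. The difference between R4W and sham was -0.22 (limma adjusted p = 0.10) as deposited and -0.59 (SE 0.13, limma adjusted p = 0.00077) rescaled, and it was -0.55 with an adjusted p of 9.8e-11 in the authors' deposited table. Likewise R2W differed from sham by -0.23 (limma adjusted p = 0.077) as deposited and -0.62 (limma adjusted p = 0.00044) rescaled. The deposited difference of R2W passed without R2W replicate 4 (-0.32, limma adjusted p = 0.020) and with R4W replicate 2 counted as R2W (-0.25, limma adjusted p = 0.041). Whether Vegfa was below sham at 2 and 4 weeks of recovery thus rests on the scale and, at 2 weeks, on single libraries.

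Ordered by mean FPKM, Vegfa ran from sham (148 ± 6.43) through R4W (127 ± 7.36) and R2W (127 ± 19.9) to R1W (106 ± 16.8), UUO7 (93.3 ± 11.9) and UUO2 (81.0 ± 5.97). No neighbouring pair in that order passed the limma test as deposited. All 9 endothelial genes had their lowest mean in UUO2 and the next lowest in sham, and for 4 of them (Ehd3, Kdr, Tek and Emcn) that pair was called.

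**Figure D2:**
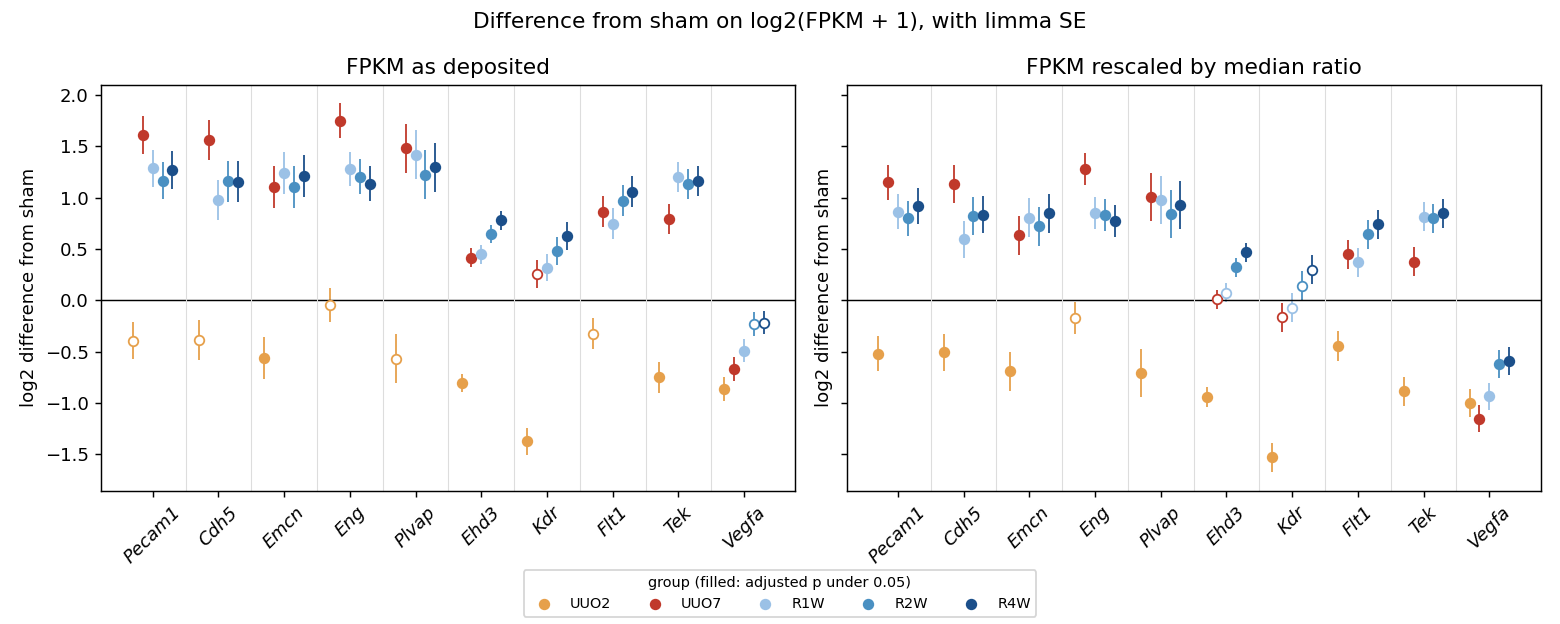
The log2 difference from sham on log2(FPKM + 1) is plotted for each gene (points, with the limma SE as bars), in the order UUO2, UUO7, R1W, R2W and R4W, as deposited on the left and rescaled on the right. Filled points passed an adjusted p of 0.05. Kdr in UUO7 is at 0.26 on the left and at -0.17 on the right, and Vegfa is below 0 in every group on both sides.

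Of the 10 genes, 5 were lower in UUO2 than in sham (Kdr, Vegfa, Ehd3, Tek and Emcn) and 0 were higher, where 17% of all 14785 genes were called lower and 32.3% higher in limma. Rescaled, 9 were lower against 25.5% of all genes. The median log2 difference of the 10 was -0.56 as deposited, while that of all genes was 0.09. Without sham replicate 2 the count was 4 as deposited and 5 rescaled, and without UUO2 replicate 4 it was 9.

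In UUO7 against sham, 8 of the 10 were higher and Vegfa was lower. The background was high: 60.1% of all genes were called higher and 17.8% lower as deposited, and 36.5% in each direction rescaled, when 7 of the 10 were higher. Of the 10 genes, 8 had all UUO7 libraries above all sham libraries, as did 56.9% of all genes. Rescaled, that held for 5, against 34.3% of all genes. Leaving out sham replicate 2 left the count at 8 higher and 1 lower. A bulk sample cannot tell a larger share of endothelial cells from more of these RNAs per cell, and fewer cells of a type cannot be told apart from less RNA per cell.

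The comparison of UUO7 with UUO2 called all 9 endothelial genes higher on both scales, with 52% of all genes called higher as deposited and 30% rescaled. The differences ran from 1.18 for Flt1 to 2.05 for Plvap, and for all 9 the UUO7 libraries lay above every UUO2 library, as they did for 47.9% of all genes. These values carry the limit on the UUO2 libraries given above.

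Reversal of the obstruction was followed by few calls at 1 week. Of the 10 genes, 0 were called in R1W against UUO7 by limma as deposited, with 14.5% of all genes called and 3 of the 10 at an unadjusted p under 0.05. Rescaled, Tek was called higher (14.4% of all genes called). The fit without UUO2 called 3 of the 10: Tek higher (0.41) and Cdh5 (-0.58) and Eng (-0.47) lower. The share of all genes called in that fit is not given here, so nothing is read from the count. Without R1W replicate 2, Cdh5 was called in the fit on all groups (-0.70, limma adjusted p = 0.027). The authors' deposited table holds adjusted p-values under 0.05 for these 3 genes and for Pecam1 (-0.31, adjusted p = 0.0015).

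At 2 weeks, 2 of the 10 were called in R2W against UUO7: Vegfa was higher (0.44, limma adjusted p = 0.0068) and Eng lower (-0.54, limma adjusted p = 0.018). Of all genes, 10.8% were called higher and 21.5% lower. Rescaled, Ehd3 and Tek were called higher as well, against 15.8% of all genes higher and 14% lower. The replicate block also gave 4, but the share of all genes called with the block is not given here. The Eng call was lost without R2W replicate 2 or 4 (-0.48 and -0.49), which left 1 call.

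By 4 weeks, 4 of the 10 were above UUO7 (Ehd3, Kdr, Tek and Vegfa) and Eng was below it, on both scales. Of all genes, 17.6% were called higher and 30.8% lower as deposited, and 25.1% and 23.2% rescaled. Without R4W replicates 1 and 3, the libraries with adipose RNA, the rescaled count was 3, with Eng (-0.50, limma adjusted p = 0.057) and Kdr (0.48) missing the threshold at nearly unchanged differences. The Tek call (0.37, limma adjusted p = 0.041) was lost without any 1 of UUO7 replicates 1, 3 or 4 or R4W replicates 2, 3 or 4 (0.32 to 0.40).

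Against sham, R1W had 9 of the 10 higher and Vegfa lower (59.4% and 14.7% of all genes as deposited). R2W had 9 higher (56.1%), and R4W had 9 higher (54.8%). Rescaled, 7, 8 and 8 were higher in R1W, R2W and R4W against 33.7%, 31.1% and 28.9% of all genes, and Vegfa was lower in all 3 groups against 34.6%, 32.5% and 31.1%. Kdr was the gene not called higher in any of the 3 after rescaling, and Ehd3 was not called in R1W. The difference of Kdr from sham in R1W also missed the threshold as deposited on leaving out sham replicate 1, 3 or 4 or R1W replicate 1 or 4 (0.24 to 0.31). All of these comparisons share the same 4 sham libraries, so their values are set side by side and are not independent.

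Between the recovery groups 1 of the 10 genes, Ehd3, was called in R4W against R1W, where 19.1% of all genes were called and 5.06% were called higher. In R2W against R1W and in R4W against R2W limma called 0 of the 10 as deposited, with 2 and 0 of them at an unadjusted p under 0.05. Of all genes it called 0.00676% and 0.0609% there. From R1W to R4W the differences of Ehd3, Kdr, Flt1 and Vegfa were 0.33, 0.31, 0.31 and 0.27 on the log2 scale, and only the first of these passed the test, although Vegfa did so without R1W replicate 1 (0.35, limma adjusted p = 0.040) and Kdr in the fit without UUO2 (limma adjusted p = 0.028).

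Ratios of 2 genes within a library do not depend on how libraries are scaled, and they were used to test whether the members moved by unequal amounts. In total 15 ratio tests were run, each a two-sided exact permutation test of 4 against 4 libraries whose smallest possible p is 0.0286, with Benjamini-Hochberg adjustment over the 15. Kdr relative to Pecam1 was 0.473 ± 0.0874 (SD, n = 4) in sham and 0.178 ± 0.0118 in UUO7. The libraries did not overlap, and the log2 ratio fell by 1.39 (exact permutation p = 0.0286, adjusted p = 0.0476). It was 0.302 ± 0.0132 in R4W, higher than in UUO7 by 0.76 and lower than in sham by 0.63 on the log2 scale, each at the same exact p. So Kdr was lower per unit of Pecam1 in UUO7 and in R4W than in sham.

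Ehd3 relative to Pecam1 showed a like course. The ratio was 0.335 ± 0.0556 in sham, 0.145 ± 0.0121 in UUO7 and 0.247 ± 0.0138 in R4W. UUO7 was below sham by a log2 difference of -1.19 and R4W above UUO7 by 0.77 (both exact permutation p = 0.0286, adjusted p = 0.0476). The difference of R4W from sham was -0.42 and overlapped (exact permutation p = 0.0571, adjusted p = 0.0857), and it passed when 1 FPKM was added to both genes (-0.49, adjusted p = 0.0429 in the exact permutation test). Plvap relative to Pecam1 was 3.55 ± 0.398 in sham, 3.11 ± 0.154 in UUO7 and 3.49 ± 0.303 in R4W, and the differences of -0.18, 0.16 and -0.02 among these groups did not pass (exact permutation adjusted p = 0.132, 0.107 and 0.914).

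**Figure D3:**
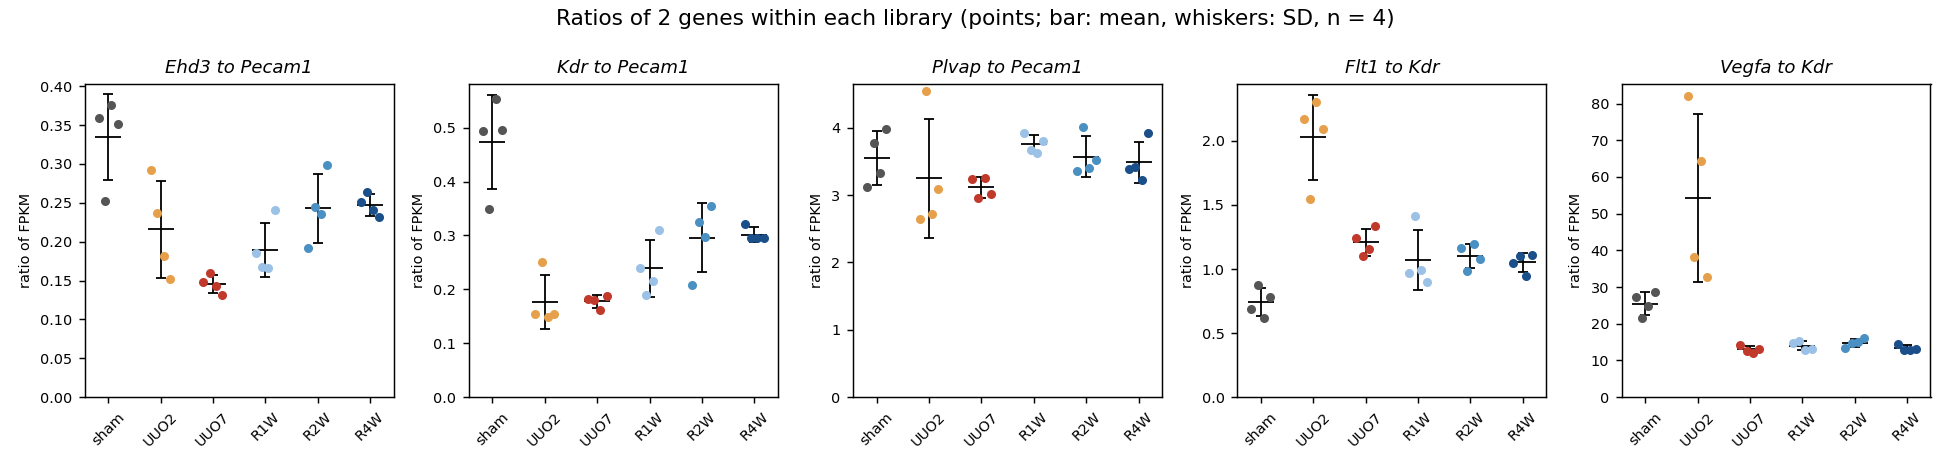
Ratios of the FPKM of 2 genes in the same library are plotted from 0 on the vertical axis for the 6 groups, with a point for each library, a bar at the mean and whiskers of 1 SD (n = 4). The ratios of Ehd3 and Kdr to Pecam1 were at 0.145 and 0.178 in UUO7, below sham, and the ratio of Vegfa to Kdr averaged between 13.0 and 14.8 from UUO7 through R4W.

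The ratio of Flt1 RNA to Kdr RNA also shifted. These RNA values are per gene, so they neither separate soluble from membrane VEGFR1 nor measure protein. The part of other cell types in Flt1 was not tested. Flt1 relative to Kdr was 0.742 ± 0.112 in sham, with libraries from 0.622 to 0.879, and 1.21 ± 0.103 in UUO7, where every library was above 0.879. The log2 ratio rose by 0.71 (exact permutation p = 0.0286, adjusted p = 0.0476). In R4W it was 1.05 ± 0.0763, still above every sham library (0.51, exact permutation p = 0.0286, adjusted p = 0.0476) and not called apart from UUO7 (-0.20, exact permutation p = 0.0857, adjusted p = 0.107). The UUO2 libraries had the highest ratio, 2.03 ± 0.332, which was not tested.

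Vegfa relative to Kdr was 25.5 ± 3.09 in sham and 13.0 ± 1.03 in UUO7, a log2 difference of -0.97 (exact permutation p = 0.0286, adjusted p = 0.0476). It was 14.0 ± 1.29 in R1W, 14.8 ± 1.11 in R2W and 13.3 ± 0.809 in R4W. R4W remained below every sham library by a log2 difference of -0.93 (exact permutation p = 0.0286, adjusted p = 0.0476) and did not pass against UUO7 (0.04, exact permutation p = 0.571). In UUO2 the ratio ranged from 32.7 to 81.9 and was the only group mean above sham, at 54.3 ± 23.0. All ratio differences from sham were larger in size without sham replicate 2, except those of Plvap to Pecam1 (-0.15 in UUO7 and 0.01 in R4W without it). A 3 against 4 comparison cannot go below an exact permutation p of 0.0571.

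Other genes of the endothelium were compared from a list of 30, of which 29 had a row. As deposited, 11 of the 29 were lower and 1 was higher in UUO2 against sham. In UUO7 28 were higher than in sham, and in R4W all 29 were. Of all genes, 17% were lower and 32.3% higher in UUO2, 60.1% higher in UUO7 and 54.8% higher in R4W. Rescaled counts were 14 lower and 0 higher in UUO2, 22 higher and 1 lower in UUO7, and 28 higher in R4W. The rescaled shares of all genes were 25.5% lower and 25.3% higher in UUO2, 36.5% in each direction in UUO7, and 28.9% higher in R4W. The rescaled medians were -0.43, 0.89 and 0.90 against -0.01, 0.01 and -0.01 over all genes. Tie1, the partner receptor of TIE2, was at 6.99 FPKM ± 1.64 in sham, 18.9 FPKM ± 1.12 in UUO7 and 18.0 FPKM ± 0.686 in R4W. Adgrf5, an adhesion receptor, was the gene lower in UUO7 after rescaling (-0.44, limma adjusted p = 0.042). Like Ehd3 it was highest in R4W, with 11.5 FPKM ± 3.53 in sham, 11.4 FPKM ± 1.84 in UUO7 and 26.1 FPKM ± 2.88 in R4W. Gpihbp1, which carries lipoprotein lipase to the capillary lumen, had an opposite course, from 11.7 FPKM ± 1.78 in sham to 60.8 FPKM ± 6.05 in UUO7 and 20.6 FPKM ± 1.85 in R4W (-1.52 against UUO7, limma adjusted p = 7.6e-05).

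Of 24 symbols listed for the VEGF, angiopoietin and Notch pathways of vessels and for the hypoxia-inducible factors Hif1a and Epas1, 21 had a row. Of those without one, Figf is an older name of Vegfd, which is listed and had a row. Tie1 is also among the 29 genes above, and Flt4 among the lymphatic genes below. In UUO2 against sham 5 were lower and 2 higher as deposited (8 and 1 rescaled), against 17% and 32.3% of all genes (25.5% and 25.3% rescaled). In UUO7 18 were higher and 0 lower (14 and 2 rescaled), against 60.1% and 17.8% of all genes (36.5% in each direction rescaled). In R4W against UUO7 2 were higher and 7 lower (3 and 6 rescaled), against 17.6% and 30.8% of all genes (25.1% and 23.2% rescaled), and nothing is read from these counts. Among them Esm1, a gene known from tip cells, was at 7.95 FPKM ± 0.444 in sham, 2.92 FPKM ± 1.36 in UUO2, 17.4 FPKM ± 2.06 in UUO7 and 8.51 FPKM ± 1.41 in R4W, lower than sham in UUO2 (-1.25) and higher in UUO7 (1.03, limma adjusted p = 1.3e-05 and 3.4e-05). Apln, the ligand of the apelin receptor, was at 2.47 FPKM ± 0.161 in sham, 6.69 FPKM ± 1.08 in UUO7 and 2.35 FPKM ± 0.404 in R4W (-1.20 against UUO7, limma adjusted p = 8.8e-06). Dll4, the Notch ligand of tip and arterial cells, rose by 1.35 in UUO7 against sham (0.96 rescaled, limma adjusted p = 2.9e-10 and 3.4e-08) and was at 5.08 FPKM ± 0.307 in R4W. Pgf, another ligand of VEGFR1, was at 0.438 FPKM ± 0.156 in sham and 4.29 FPKM ± 1.61 in UUO7 (1.84, limma adjusted p = 2.7e-07). In UUO2, where Vegfa was lowest, Pgf was at 0.233 FPKM ± 0.132, not called apart from sham.

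Podocytes, a main source of VEGF-A, were followed with 8 genes. In UUO2 4 were lower and 2 higher than in sham (4 and 1 rescaled), where 17% of all genes were lower and 32.3% higher (25.5% and 25.3% rescaled). In UUO7 7 were higher as deposited, against 60.1% of all genes, and 4 rescaled, against 36.5%. In R4W all 8 were higher on both scales, against 54.8% of all genes as deposited and 28.9% rescaled. Their summed level ranged from 54.2 to 61.3 FPKM in sham, 104 to 125 FPKM in UUO7 and 147 to 216 FPKM in R4W. From UUO7 to R4W 6 of the 8 rose on both scales, against 17.6% of all genes as deposited and 25.1% rescaled. Among tubule genes, all 6 proximal tubule genes were lower in UUO7 than in sham, and all 6 were higher in R4W than in UUO7, on both scales. Of 5 thick ascending limb genes, 4 were lower in UUO7 than in sham and 4 were higher in R4W than in UUO7, on both scales. The fifth, Cldn16, went the other way in UUO7, from 8.89 FPKM ± 0.803 in sham to 18.3 FPKM ± 0.669 (0.97, limma adjusted p = 7.6e-08). Of all genes 17.8% were lower in UUO7 (36.5% rescaled) and 17.6% higher in R4W than in UUO7 (25.1% rescaled). The part of either cell type in the Vegfa values was not tested.

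Vegfa is a known target of hypoxia-inducible factors, and 10 other such targets were compared with it. In UUO7 5 were higher and 3 lower than in sham as deposited, against 60.1% and 17.8% of all genes, and 4 and 5 rescaled, against 36.5% in each direction. Nothing about the targets is read from these counts. Ankrd37, for example, rose by 2.00 (limma adjusted p = 2.0e-09) and Slc2a1, the glucose transporter GLUT1, by 0.94 (limma adjusted p = 2.4e-07). Car9, a carbonic anhydrase, fell by 1.63 (limma adjusted p = 2.1e-08), and Pgk1, a glycolytic enzyme, fell by 0.42 (limma adjusted p = 0.0001).

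**Figure D4:**
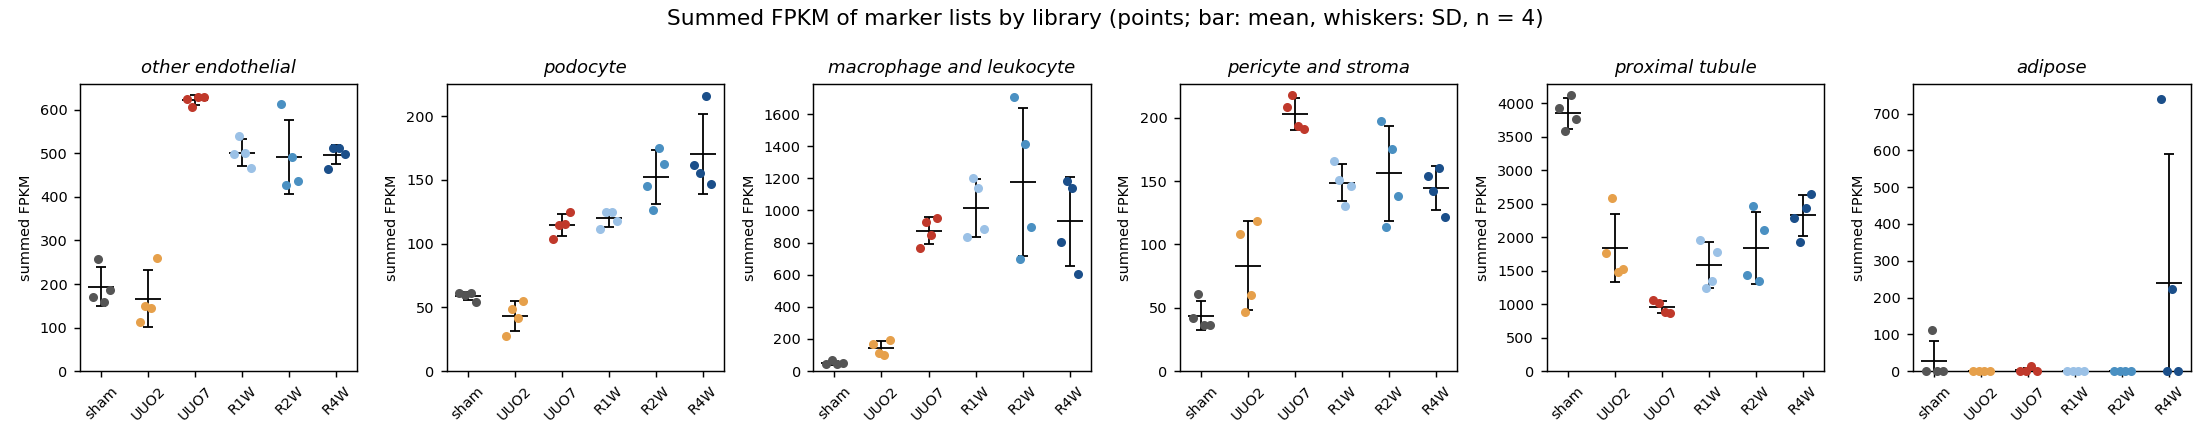
The summed FPKM of 6 marker lists is plotted from 0 on the vertical axis for the 6 groups, with a point for each library, a bar at the mean and whiskers of 1 SD (n = 4). The endothelial list sums to 606 to 630 FPKM in UUO7 and to 160 to 259 FPKM in sham, and the adipose list is at 110 FPKM in 1 sham library, 12.9 FPKM in 1 UUO7 library and 222 and 739 FPKM in 2 R4W libraries.

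Other cells changed at the same time. All 8 macrophage and leukocyte genes were higher in UUO7 and in R4W than in sham on both scales, against 60.1% and 54.8% of all genes as deposited and 36.5% and 28.9% rescaled. Their summed level ranged from 42.1 to 69.5 FPKM in sham, 768 to 955 FPKM in UUO7 and 606 to 1181 FPKM in R4W. Leukocytes and platelets also express Pecam1, and some macrophages Eng, and the part of these cells in those 2 genes was not tested. Of the platelet genes, 2 of 4 had a row: Pf4, which macrophages also express, was higher in UUO7 (3.68, limma adjusted p = 5.8e-10), and Itga2b was not called (0.04 as deposited, limma adjusted p = 0.84) but was lower rescaled (-0.42, limma adjusted p = 0.029). All 7 pericyte and stroma genes were higher in UUO7 on both scales, against the same shares of all genes for UUO7, with sums of 36.2 to 61.0 FPKM in sham and 191 to 218 FPKM in UUO7. The 4 uroplakin genes of the urothelium summed to 9.52 to 23.5 FPKM in UUO7, 9.57 to 43.3 FPKM in R1W, 20.1 to 58.0 FPKM in R2W and 36.8 to 117 FPKM in R4W. All 4 were higher than sham in R2W and in R4W on both scales, against 56.1% and 54.8% of all genes as deposited and 31.1% and 28.9% rescaled. All 4 were also higher in R4W than in UUO7 on both scales, against 17.6% and 25.1%. The part of the urothelium in the recovery values of the 10 genes was not tested. Of 4 lymphatic genes with a row, 3 were higher in UUO7 (2 rescaled, against 60.1% and 36.5% of all genes) and Prox1, the defining factor of lymphatic endothelium, was lower (-0.73, limma adjusted p = 0.0010), with means of 1.64 FPKM in sham and 0.575 FPKM in UUO7. Which kidney cells the Prox1 RNA came from was not tested. Of 4 listed adhesion molecules of activated endothelium, Sele and Selp had no row. The other two, which tubule cells can also make, rose in UUO7 against sham (5.79 for Vcam1 and 2.81 for Icam1, limma adjusted p = 4.9e-13 and 1.9e-10). Vcam1 went from 1.75 FPKM ± 0.205 in sham to 151 FPKM ± 18.6 in UUO7 and 44.7 FPKM ± 15.8 in R4W, and Icam1 from 8.46 FPKM ± 1.19 to 64.9 FPKM ± 4.13 and 34.3 FPKM ± 6.06.

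Genes with courses most like those of 3 members were found by the root mean square difference of centred log2 group means over the 6 groups, among the 9707 genes that averaged 5 FPKM or more. For Pecam1 they were Npr1 (0.08), Cracr2b (0.08) and Egfl7 (0.08), for Ehd3 they were Ccm2l (0.07), Exoc3l2 (0.09) and Tjp3 (0.09), and for Vegfa they included Uck1 (0.06) and Pfkm (0.08), all in log2 units. Egfl7 is itself in the endothelial list, and its mean went from 54.4 FPKM ± 12.1 in sham to 190 FPKM ± 8.73 in UUO7 and 127 FPKM ± 8.68 in R4W.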

How the data were processed

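Polyadenylated RNA of 24 kidneys was sequenced in 6 groups of 4, per the labels. The authors deposited a table with a value per gene and library, and FPKM was inferred as its unit: the libraries' sums differed up to 1.16-fold, and sums of value times transcript length up to 1.08-fold. The submitters' processing notes name mm10, FastQC, Bowtie2, RSEM and DESeq2 without roles or versions. The table also holds the authors' log2 fold changes and adjusted p-values, whose base and direction were inferred from the deposited values. Genes with a mean under 1 are not analysed here.

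The 10 genes and the compared lists were chosen with earlier results of these data known, and all 10 were named, with the 3 nearest genes in course for each of 3 of them, except 1 that is not reported here. One limma model (version 3.58.1, R 4.3.3, trended eBayes) over all 24 libraries was fitted to log2(FPKM + 1) of every gene. A call is a p-value under 0.05 after Benjamini-Hochberg adjustment over all genes. Such differences understate the change of low genes. SD is over animals. The limma p-values set a difference against a spread between animals that is estimated over all 6 groups and drawn toward that of other genes. Ratios were tested by exact permutation in Python 3.11.15 with scipy 1.17.1. Alternatives were rescaling, pseudocounts of 0.1 and 10, a mean of at least 5, other fits, a replicate block, and each replicate left out. Shares of all genes are printed for the model on all groups, as deposited and rescaled, and not for the other alternatives. Those leaving out sham 2 or R4W 1 and 3 on rescaled values, or rescaling with the block, and all those for R2W against UUO7, were chosen after seeing the data. On simulated data for UUO7 against sham, limma called 169 of 200 changed genes and 5 unchanged ones among 14785. Replicate numbers recur across groups, but no comparison had all same-numbered pairs correlated above 0.1. They were therefore not used to pair the animals, although this check cannot exclude pairing or shared handling. The deposited coordinates of 9 of the 10 genes equal those of the GRCm38 annotation used, and Ehd3 differs.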

Additional observations from a re-analysis of the deposited data

Results flagged for a closer look

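Of the checks for outlying libraries, 4 among the 60 of a group of 4 libraries found a library far from the other 3, where chance gives about 3. In sham, replicate 2 held 18.93 FPKM of Pecam1 and 43.97 FPKM of Emcn, above the rest of its group. This is the sham library with adipose and urothelial RNA. In R2W, replicate 1 held 37.62 FPKM of Pecam1. In UUO2, replicate 4 held 28.24 FPKM of Eng, while the other 3 libraries were close to 15.9 FPKM.

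The effects of 2 and 7 days of obstruction against sham differed for all 9 endothelial genes by the limma test of UUO7 against UUO2. Of all genes, 52% were called higher there. It is the comparison of UUO7 with UUO2 given above, as sham cancels. On the log2 scale as deposited, the differences between the effects were 2.00 for Pecam1, 1.94 for Cdh5, 1.67 for Emcn, 1.80 for Eng and 2.05 for Plvap. They were 1.22 for Ehd3, 1.63 for Kdr, 1.18 for Flt1 and 1.54 for Tek. The UUO2 libraries stood apart in depth steps and mitochondrial rRNA, and their part in these differences cannot be told apart from the duration of obstruction. The effects of R1W and R4W against sham differed for Ehd3, by 0.33, where 5.06% of all genes were called higher.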

How the results depend on the processing

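In UUO7 against sham, UUO7 against UUO2 and each recovery group against sham, 8 to 10 of the 10 genes were called under every alternative run. As deposited, 77.9% and 66.7% of all genes were called in the first 2 of these. Against sham, 74.1% were called in R1W, 69% in R2W, 66.4% in R4W and 49.2% in UUO2. Against UUO7, 14.5% were called in R1W, 32.3% in R2W and 48.4% in R4W, and R4W against R1W had 19.1%. Shares under the alternatives are not printed, and nothing about the genes is read from these counts. In UUO2 against sham 5 were called, and 9 were called on rescaled values, with or without the replicate block, and 7 with the block alone. Same-numbered libraries correlated above 0.1 in at most 2 of 4 pairs. With each replicate left out in turn, 4 to 9 were called, the highest without UUO2 replicate 4. In R1W against UUO7, 0 were called, against 1 rescaled, 3 with a pseudocount of 10, 1 with a mean of at least 5, 3 in the fit on the 2 groups, 3 in the fit without UUO2, 1 with the replicate block and 2 rescaled with the block. Leaving out replicates gave 0 to 1. In R2W against UUO7, 2 were called, against 6 with a pseudocount of 10 and 4 each rescaled, in the fit on the 2 groups, without UUO2, with the replicate block, rescaled with the block and with R4W replicate 2 placed in R2W. Leaving out replicates gave 1 to 3, with 1 without R2W replicate 2 or 4. In R4W against UUO7, 5 were called, against 3 with a pseudocount of 0.1 and 3 rescaled without R4W replicates 1 and 3. Leaving out replicates gave 3 to 5, with 3 without UUO7 replicate 1 or 3 or R4W replicate 3 or 4. In R4W against R1W, 1 was called, against 2 with a pseudocount of 10, 0 in the fit on the 2 groups, 2 without UUO2, 0 rescaled without R4W replicates 1 and 3 and 2 rescaled with the block. Leaving out replicates gave 0 to 2. Where fewer libraries entered a fit, the test had fewer samples. The cause was not tested otherwise.

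Signs turned for Kdr in UUO7 against sham (-0.17 rescaled, also with the block, and -0.14 without sham replicate 2) and in R1W against sham (-0.0703, also with the block, and -0.0464), and for Vegfa in UUO7 against UUO2 (-0.15 rescaled, also with the block). Emcn in R2W against UUO7 turned to 0.0869 rescaled, also with the block, and to 0.000755 with R4W replicate 2 placed in R2W, and ran from -0.113 to 0.0615 with replicates left out. Plvap in R4W against UUO7 turned to 0.0392 rescaled without R4W replicates 1 and 3. In R4W against R1W the rescaled values were 0.0557 for Pecam1, 0.0448 for Emcn and 0.0316 for Tek, also with the block, and 0.0966, 0.0828 and 0.16 without R4W replicates 1 and 3, when Plvap was at 0.0634. None of these small values passed the test. The ratio of Ehd3 to Pecam1 in R4W against sham passed with a pseudocount of 1 (-0.49), and that of Plvap to Pecam1 turned to 0.025. Leaving out replicates moved Eng in UUO2 against sham between -0.245 and 0.123, Ehd3 and Kdr in R1W against UUO7 between -0.026 and 0.0951 and between -0.0124 and 0.122, and Pecam1, Emcn and Tek in R4W against R1W between -0.0635 and 0.0419, -0.0922 and 0.0253, and -0.105 and 0.0381. In paired tests by replicate number, the smallest exact permutation p is 0.125, so the replicate block decides no ratio. No floor for low genes was computed, and for UUO2 no depth was found.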
